A study of Rattus norvegicus with 9 samples.

Results

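The acute phase plasma proteins examined here are secreted products of the liver whose genes are switched up or down during inflammation. The set held 10 genes, namely Orm1, Lbp, Hp, Crp, A2m, Lcn2, the fibrinogen chain genes Fga, Fgb and Fgg, and Alb, listed by name. They were found by matching the RefSeq accession of each probe to these symbols or their synonyms. This gave 15 probes for the 10 genes, of 41012 probes on the array and 13438 genes that could be named. All 15 probes passed the filter on dim probes.

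The livers of 9 male Wistar rats, 3 per group, were each profiled on a separate Agilent whole rat genome array with a single dye. The control group received neither drug nor radiation. The TBI group received total-body irradiation of 6.5 Gy from a 60Co source, and the HSC + TBI group received Hong Shan Capsule by gavage on 3 consecutive days before the same irradiation. Livers were taken 24 h after exposure. HSC is a crude drug made from medicinal herbs, and its daily dose is given as 30 mg/kg in the sample labels and as 10 g/kg in the description of the series. No group received HSC without radiation, and the age of the rats was not given in the sources used here. The RNA came from whole liver pieces, so that fewer cells of a type and less RNA per cell cannot be told apart in any value below.

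The acute phase response is the change in plasma protein production by hepatocytes that follows tissue injury or infection. Interleukin-6 and related cytokines act through the shared receptor subunit gp130 and the factor STAT3, interleukin-1 and tumour necrosis factor act through NF-kB, and C/EBP factors and glucocorticoids add to both. Positive acute phase proteins rise in plasma, with alpha-1-acid glycoprotein and alpha-2-macroglobulin being the classical strong responders of the rat, whereas C-reactive protein is plentiful in healthy rats and moves little. Negative acute phase proteins such as albumin fall.

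Sequence before annotated transcript starts is shown because motifs for these factors are what the members of the set are known to share. Promoters of 7 of the 10 genes were matched in the RefSeq promoter table of build GRCr8 (Hp, A2m and Lbp were not), each covering 250 bases before and 50 bases after an annotated transcript start. The 250 bases before the start are printed 5′ to 3′ for the member that rose after irradiation and had a promoter entry (Orm1), for the fibrinogen chains with the most matches (Fgb and Fgg) and for the member with an NF-kB match (Lcn2). They lie at chr5:81788259-81788508 on the plus strand (Orm1), chr2:170700876-170701125 on the minus strand (Fgb), chr2:170652833-170653082 on the plus strand (Fgg) and chr3:36081781-36082030 on the minus strand (Lcn2). The Fgg gene is annotated from 170652929 and the Lcn2 gene up to 36081851, so part of each of these stretches lies within the gene. Capitals mark matches to the motifs of the STAT, IL-6 response, C/EBP and NF-kB classes that are spelled out in the next paragraph.
Orm1: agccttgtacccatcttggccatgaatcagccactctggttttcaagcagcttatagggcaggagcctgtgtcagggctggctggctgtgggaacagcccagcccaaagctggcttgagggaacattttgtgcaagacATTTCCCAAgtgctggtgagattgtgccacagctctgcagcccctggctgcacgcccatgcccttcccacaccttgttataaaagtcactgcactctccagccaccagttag
Fgb: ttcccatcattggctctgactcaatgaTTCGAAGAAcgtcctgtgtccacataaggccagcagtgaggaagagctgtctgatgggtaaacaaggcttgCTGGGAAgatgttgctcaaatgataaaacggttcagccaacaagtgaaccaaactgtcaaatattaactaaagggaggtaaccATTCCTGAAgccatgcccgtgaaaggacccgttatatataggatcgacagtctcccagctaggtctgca
Fgg: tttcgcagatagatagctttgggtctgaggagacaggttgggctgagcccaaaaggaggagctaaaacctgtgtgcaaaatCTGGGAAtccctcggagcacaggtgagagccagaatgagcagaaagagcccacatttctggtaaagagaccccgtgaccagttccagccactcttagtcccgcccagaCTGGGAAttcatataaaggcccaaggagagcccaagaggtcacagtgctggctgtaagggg
Lcn2: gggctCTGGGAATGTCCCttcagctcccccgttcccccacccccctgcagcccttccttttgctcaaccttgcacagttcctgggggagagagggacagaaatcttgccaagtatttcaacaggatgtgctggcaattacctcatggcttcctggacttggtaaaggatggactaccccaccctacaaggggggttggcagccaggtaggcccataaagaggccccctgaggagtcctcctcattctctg

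Motifs were searched on both strands of the 300 bases. The GAS motif of STAT factors (TTCNNNGAA) was present in 8.87% of the 33469 promoters of this length in the table, the core of the IL-6 response element (CTGGGAA) in 11.3%, the C/EBP site (TTNNGNAAT) in 12.3% and the NF-kB site (GGGA and TTCC with 2 bases of any kind between them) in 1.3%. TATAAA was found in 14.2% and was left in lower case. Orm1 held 1 C/EBP match at positions -112 to -104 from the start, and a TATAAA beginning at -35. The Fgb promoter had the most kinds of match, with a GAS motif, a CTGGGAA and 2 C/EBP matches, the last of them after the start. Fgg carried 2 CTGGGAA cores, beginning at -169 and -61, the latter inside the annotated gene. In Lcn2, the CTGGGAA core overlapped the NF-kB match, which was the only one of that kind among the 7 genes. Crp and Alb held 1 C/EBP match each, and Fga, with 2 listed starts, a GAS motif in the window of only 1 of them. Such matches describe letters and not bound sites.

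**Figure D1:**
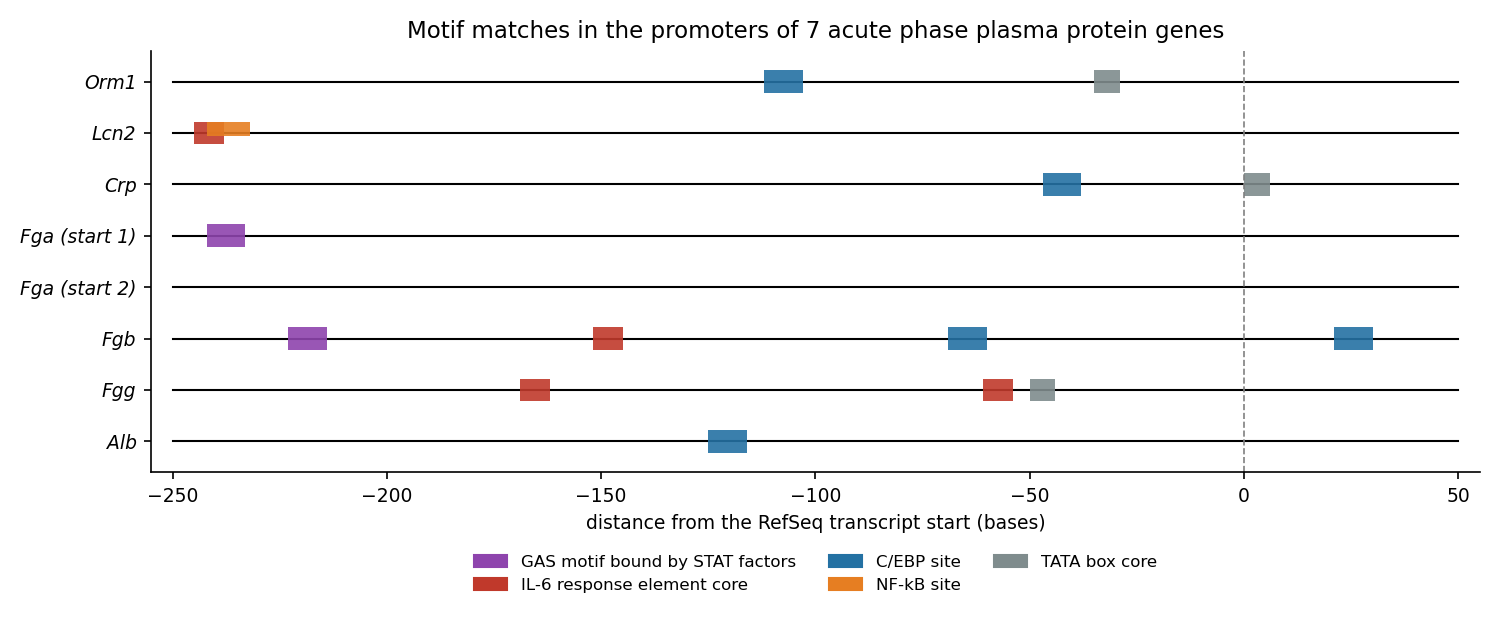
Motif matches in the promoters of the 7 acute phase genes found in the promoter table, with distance from the annotated transcript start in bases on the horizontal axis and 1 line per start (Fga has 2). Coloured boxes are matches of the named motif on either strand, and the dashed line is the start. Fgb shows the most kinds of match, and the Lcn2 matches overlap each other.

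Every TBI array had a higher share of probes above background than every array of the other groups. The share of probes above background was 56.65% to 59.33% in controls, 63.57% to 69.54% in TBI rats and 58.66% to 60.46% in HSC + TBI rats. No spot was saturated. TBI rat 3 stood apart with a 75th percentile of raw log2 signal of 8.70, against 7.59 to 7.98 on the other 8 arrays, and with the highest share of probes above background. The 3 controls shared 1 slide and the 3 TBI arrays another, while HSC + TBI was spread over 2 further slides, so that slide and group cannot be told apart. All 10 hepatocyte markers were above background on every array, which matches the labelled tissue.

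Signals are given below as quantile-normalized log2 values of the brightest probe of a gene unless another probe is named. Differences are log2 fold changes fitted by limma, with 95% intervals and with p adjusted over 25369 probes. A change was called at an adjusted p under 0.05 and a fold of at least 1.5. Two-sided exact permutation of 3 rats against 3 cannot give a p below 0.1, so the shared estimate of the spread across all probes carries these tests.

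After TBI alone, 2 of the 10 acute phase genes were called, Orm1 and Lbp, both higher than in controls, and none was called lower. Over all probes tested, 7.25% were called in this comparison, 3.54% higher and 3.71% lower. The median log2 change of the 10 members was 0.16, beside -0.01 over all probes tested, and 9 of the 10 had a value above 0. Rats of the TBI group lay wholly above the controls for 3 members (Orm1, Lbp and Hp), where 13.3% of all probes tested did so.

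Orm1 encodes alpha-1-acid glycoprotein, a lipocalin that binds drugs and dampens inflammation. Its log2 signal was 14.47, 15.34 and 15.17 in the 3 controls. The TBI rats gave 16.56, 16.93 and 16.26, and the HSC + TBI rats 15.81, 16.67 and 15.84. Every irradiated rat, with or without HSC, was above every control, while the TBI and HSC + TBI rats overlapped.

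Group means of Orm1 were 14.99 ± 0.46 (SD, n = 3) in controls, 16.58 ± 0.34 after TBI and 16.11 ± 0.49 after HSC + TBI. Orm1 rose 3.01-fold after TBI (interval 1.84 to 4.90, log2 change 1.59, SE 0.31, adjusted p = 0.0191). The moderated F-test over the 3 groups also passed for Orm1 (adjusted p = 0.0386), and for no other member, beside 6.89% of all probes. The call against controls was lost without control rat 1 (log2 change 1.33, adjusted p = 0.0512), control rat 3 (1.68, 0.0522) or TBI rat 2 (1.41, 0.0593).

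Lbp encodes lipopolysaccharide-binding protein, which carries bacterial lipopolysaccharide to CD14. Controls had log2 signals of 9.93, 10.10 and 10.45. TBI rats had 11.29, 11.89 and 11.22. In the HSC + TBI group the values were 10.28, 11.28 and 10.89. All 3 TBI rats were above all 3 controls, whereas the HSC + TBI rats spread from the range of the controls up to that of the TBI rats, with rat 1 below the highest control.

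Lbp averaged 10.16 ± 0.26 in controls, 11.47 ± 0.37 after TBI and 10.81 ± 0.50 after HSC + TBI. It rose 2.47-fold after TBI (interval 1.58 to 3.86, log2 change 1.31, SE 0.28, adjusted p = 0.0275). The F-test over the 3 groups gave an adjusted p of 0.0593 for Lbp. Leaving out control rat 1 (log2 change 1.19, adjusted p = 0.0822), control rat 2 (1.28, 0.0780), control rat 3 (1.45, 0.0532) or TBI rat 2 (1.10, 0.0764) ended the call.

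**Figure D2:**
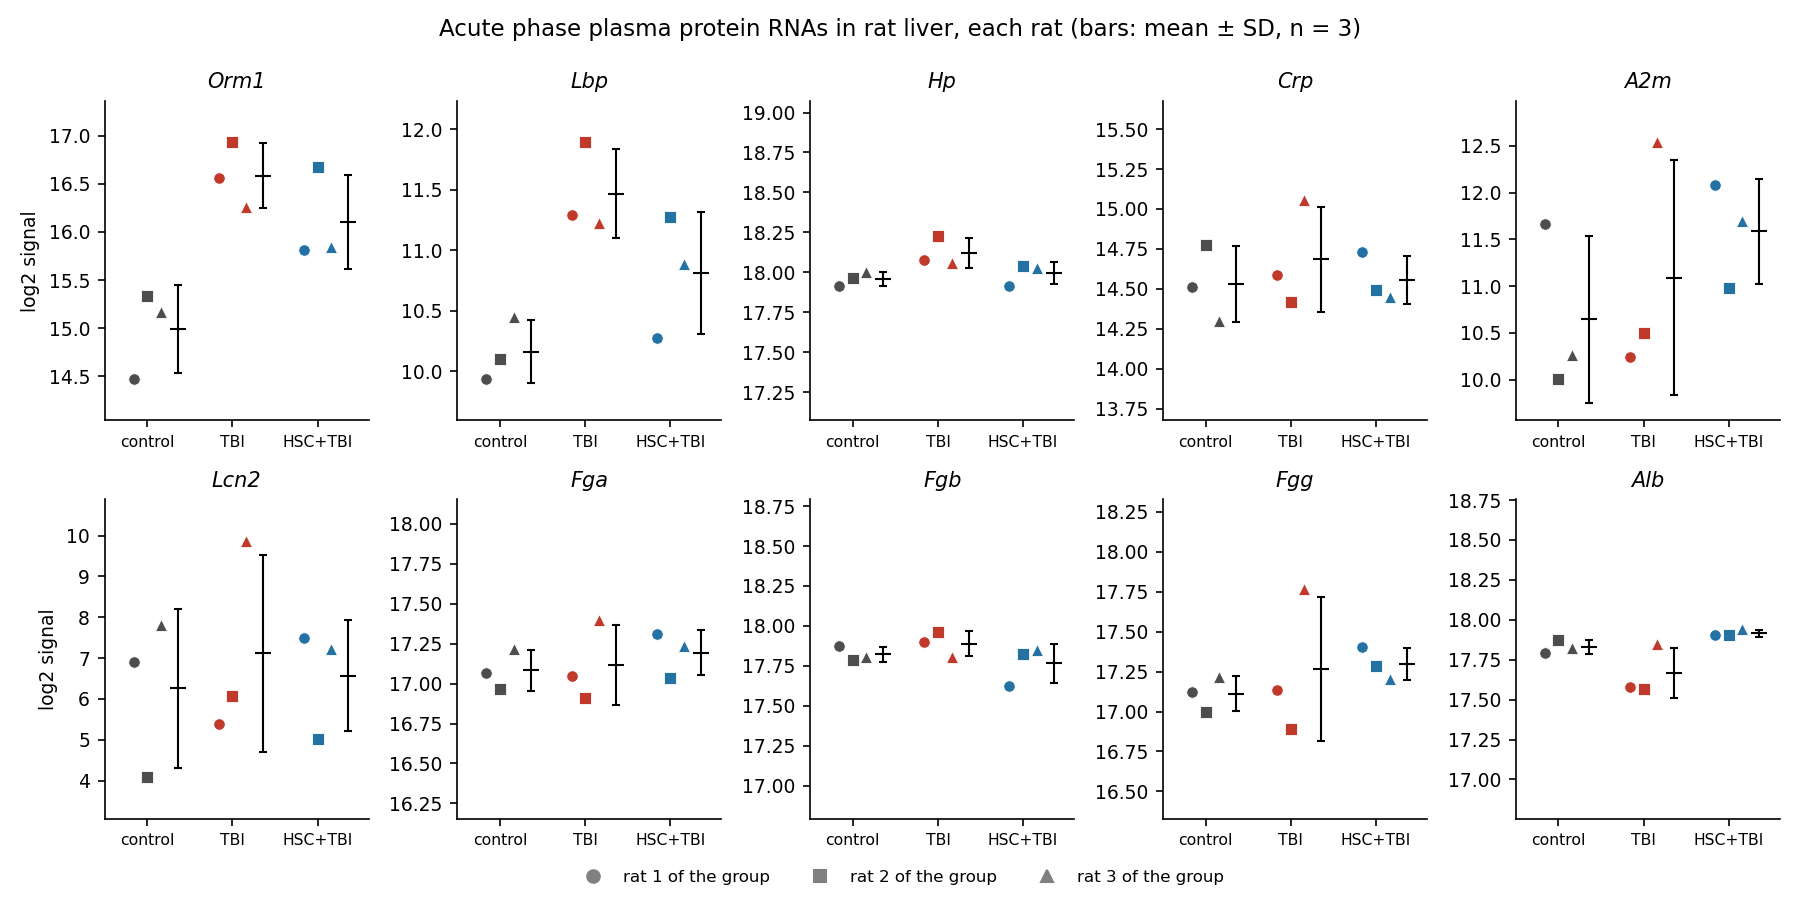
Quantile-normalized log2 signal (vertical axes, each with its own range) of the brightest probe of the 10 acute phase genes in each of the 9 rats, by group. Symbols mark rats 1 to 3 of a group and bars the mean ± SD (n = 3). Orm1 and Lbp are higher in all TBI rats than in all controls, while A2m and Lcn2 spread widely within groups.

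Hp, haptoglobin, which binds free haemoglobin, was bright in every rat, with log2 signals of 17.92, 17.96 and 18.00 in controls and 18.08, 18.23 and 18.06 after TBI. After HSC + TBI its log2 signals were 17.92, 18.04 and 18.03. The TBI rats lay above both other groups, but by little. The log2 difference from controls was 0.16 (interval -0.08 to 0.40, adjusted p = 0.367). The highest normalized value on any array was 18.37, so these values could not have shown a mean rise as large as that of Orm1. When the arrays were scaled by their 75th percentile, the Hp difference from controls was 0.0016 (adjusted p = 0.997).

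Crp, the pentraxin C-reactive protein, ranged from 14.30 to 14.77 in controls, 14.42 to 15.05 after TBI and 14.45 to 14.73 after HSC + TBI. The groups overlapped. TBI and control differed by 0.16 on the log2 scale (interval -0.28 to 0.60, adjusted p = 0.647), and the second, dimmer Crp probe gave 0.02.

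The fibrinogen chains, which are assembled into the clotting protein, were bright in every rat. Fga had log2 signals of 16.97 to 17.22 in controls and 16.91 to 17.40 after TBI, a difference of 0.04 (interval -0.32 to 0.39, adjusted p = 0.909). Fgb spanned 17.79 to 17.88 and 17.80 to 17.96, a difference of 0.07 (-0.18 to 0.32, adjusted p = 0.743). For Fgg the spans were 17.00 to 17.21 and 16.89 to 17.77, a difference of 0.15 (-0.32 to 0.63, adjusted p = 0.683). The control and TBI rats overlapped in all 3 genes. With the highest normalized value at 18.37, these brightest probes had no room for a mean rise as large as that of Lbp or Orm1. A second Fgb probe read 17.44 to 17.79 in controls and 17.80 to 18.16 after TBI, with no overlap and a log2 difference of 0.27 (adjusted p = 0.290), so that the Fgb probes did not give the same picture. The second Fgg probe, with a control mean of 16.51, had room for a rise of the size seen for Lbp or Orm1. It gave 0.20 (interval -0.11 to 0.51, adjusted p = 0.398).

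A2m encodes alpha-2-macroglobulin, a broad protease inhibitor and one of the strongest acute phase responders known in the rat. Its log2 signals in controls were 11.66, 10.01 and 10.26. TBI rats had 10.24, 10.49 and 12.54, and HSC + TBI rats 12.08, 10.97 and 11.70. The rats of each group spanned much of the same range, and TBI rat 3 was by far the highest of its group. The log2 difference between TBI and control was 0.45 (interval -1.05 to 1.94, adjusted p = 0.709) and turned to -0.28 without TBI rat 3.

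Lcn2, lipocalin 2, sequesters bacterial siderophores and is made by hepatocytes and neutrophils. The controls read 6.90, 4.08 and 7.81 on the log2 scale, and 2 of these 3 arrays were above background. TBI rats read 5.39, 6.08 and 9.88, and HSC + TBI rats 7.48, 5.01 and 7.21. No group stood apart, since control rat 2 was the lowest and TBI rat 3 the highest of all 9. The log2 difference of TBI from control was 0.85 (interval -2.19 to 3.90, adjusted p = 0.728), and -0.52 without TBI rat 3. An interval this wide neither shows nor excludes a change of the size seen for Orm1.

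Signals of the neutrophil markers, summed on the linear scale, were 514.7 to 735.5 in controls, 497.1 to 1145 in TBI rats and 301.5 to 362.2 in HSC + TBI rats. Of 10 such markers with a probe, 3 were above background on all arrays, while Elane and Mmp8 were above it on none. The sum was highest in TBI rat 2, whereas Lcn2 was highest in TBI rat 3. The part of these cells in the Lcn2 signal was not tested.

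Alb, albumin, is the major plasma protein and a negative acute phase protein. Its brightest probe read 17.79, 17.88 and 17.83 in controls, 17.58, 17.57 and 17.85 after TBI and 17.90, 17.90 and 17.94 after HSC + TBI. TBI rats 1 and 2 were below every other rat, while TBI rat 3 lay among the controls. TBI differed from control by -0.16 (interval -0.42 to 0.09, adjusted p = 0.396). The other Alb probes gave -0.06 and 0.17, so the direction depended on the probe.

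Spread between rats of the same group differed greatly among the members. The SD within groups, pooled over the 3 groups on the log2 scale, was 0.07 for Hp, 0.09 for Fgb, 0.10 for Alb and 0.18 for Fga, against a median of 0.23 over all probes tested. It was 0.25 for Crp and 0.27 for Fgg. The genes that rose had 0.43 (Orm1) and 0.39 (Lbp), whereas A2m had 0.95 and Lcn2 1.95. Hp, Alb and the fibrinogen chains lay close to the highest normalized value of 18.37, and Lcn2 was not above background in every control. The part of these limits in the spread was not tested. Within the TBI group, rat 3 was the highest for A2m, Lcn2, Fga, Fgg, Crp and the brightest Alb probe. It was the lowest for Orm1, Lbp, Hp and the brightest Fgb probe, but the highest on the second Fgb probe. It is also the rat whose raw signal stood apart. Both calls remained without that rat, with log2 changes of 1.75 for Orm1 (adjusted p = 0.0216) and 1.43 for Lbp (adjusted p = 0.0323).

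**Figure D3:**
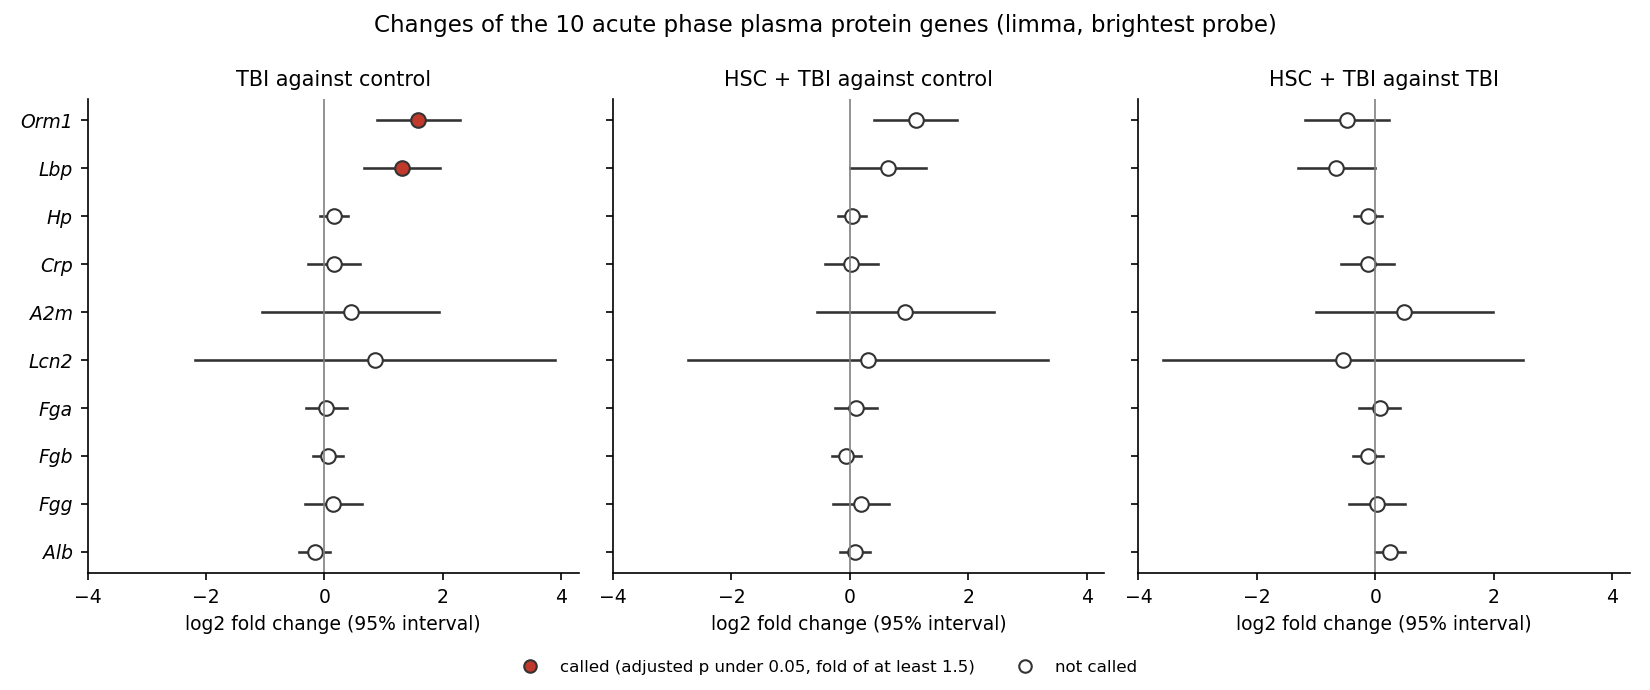
Log2 fold change of the brightest probe of each acute phase gene (points) with its 95% interval (lines) in the 3 comparisons. Filled points are called and open points are not. Only Orm1 (1.59) and Lbp (1.31) are filled, in TBI against control, and the lines of Lcn2 and A2m are the longest.

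HSC + TBI was next set against the control group, which shows how the same genes stood in irradiated rats that had received the drug. None of the 10 members was called, while 2 had an unadjusted p under 0.05 (Orm1 and Lbp, beside 19.6% of all probes), the methods' t-test called 1 at an unadjusted p and 0 after adjustment, and 3.23% of all probes were called. The members' median log2 change was 0.15, beside 0.05 over all probes. Rats of the HSC + TBI group lay wholly above the controls for 2 members (Orm1 and Alb), where 18% of all probes did so. Orm1 was 2.16-fold as bright as in controls (interval 1.33 to 3.53, log2 difference 1.11, adjusted p = 0.0946), with every HSC + TBI rat above every control. It passed the threshold when the arrays were scaled by their 75th percentile (log2 change 1.33, adjusted p = 0.0436). Lbp differed by 0.65 (interval 0.01 to 1.30, adjusted p = 0.249). For A2m the value was 0.94 (interval -0.55 to 2.43, adjusted p = 0.478). Alb differed by 0.08, with no overlap of the rats (adjusted p = 0.731). The other 6 members had log2 differences between -0.06 (Fgb) and 0.31 (Lcn2), and their rats overlapped with the controls on the brightest probe. On the second probes of Fgb (0.22, adjusted p = 0.468) and Fgg (0.14, adjusted p = 0.628) the rats lay wholly above the controls. The direction for Fgb thus depended on the probe. The second Crp probe gave 0.04, with overlap.

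HSC + TBI was also compared with TBI alone, the comparison that bears on the drug. No member was called, 1 had an unadjusted p under 0.05 (Lbp, beside 16.3% of all probes), the methods' t-test called 0, and 0.796% of all probes were called. Lbp differed by -0.65 on the log2 scale (interval -1.30 to -0.01, adjusted p = 0.299), with HSC + TBI rats 1 and 3 below the TBI rats and rat 2 within their span. It was -0.39 without HSC + TBI rat 1. The Orm1 difference was -0.47 (interval -1.18 to 0.23, adjusted p = 0.493), and it was -0.30 without TBI rat 2 and -0.76 without HSC + TBI rat 2. Missing the threshold does not show that the levels were equal. Alb was 0.25 higher in value (interval -0.01 to 0.51, adjusted p = 0.322), with no overlap between the groups on the brightest probe, and its other probes gave 0.13 and -0.03. Hp differed by -0.13 (adjusted p = 0.583), again without overlap, and by 0.15 under 75th percentile scaling. Of all probes tested, 12.7% were higher and 8.74% lower in HSC + TBI than in TBI rats without overlap. The median over the members was -0.13, beside 0.06 over all probes.

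The TBI and HSC + TBI comparisons with control share the same 3 control rats, so their values are set side by side and not counted as separate evidence. Orm1 stood at 1.59 and 1.11, Lbp at 1.31 and 0.65, A2m at 0.45 and 0.94, and Lcn2 at 0.85 and 0.31. HSC + TBI against TBI was called for none of these genes. Its values for Orm1 and Lbp are those given above, while A2m differed by 0.49 (interval -0.997 to 1.99, adjusted p = 0.745) and Lcn2 by -0.55 (interval -3.59 to 2.50, adjusted p = 0.869).

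Some genes outside the set had a pattern over the 9 arrays much like that of a member. Among 8529 named genes above background on all arrays, those most like Orm1 were the kininogen gene Kng2 (Pearson r = 0.96), Hacd3 (0.95) and Kng1 (0.95). Closest to Lbp were the ferritin heavy chain gene Fth1 (0.98), Resp18 (0.94) and Hacd3 (0.94). For Alb they were C1h9orf40 (0.95), Iqub (0.94) and Ptdss1 (0.93). These coefficients describe 9 points that share group differences and normalization. They are also the highest picked from 8529 genes, a choice that favours large values, so they are not read as a link between genes.

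The wider acute phase repertoire was read from a list of 18 other positive acute phase proteins, of which 17 passed the filter on dim probes and Ptx3 was above background on no array. After TBI, 3 of the 17 rose and none fell, beside 3.54% called higher and 3.71% called lower over all probes tested. Kng1 and Kng2, kininogens that are precursors of the kinin peptides, rose by 1.75 (adjusted p = 0.0205) and 1.55 (adjusted p = 0.0183) on the log2 scale. Their near-identical sequences mean that the probes may not tell them apart. Hamp, hepcidin, the hormone that limits iron export, rose by 1.20 (adjusted p = 0.0489). The list's median log2 change was 0.20, beside -0.01 over all probes.

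Kng1 had log2 signals of 14.84, 15.58 and 15.36 in controls, 16.39, 17.54 and 17.09 after TBI and 16.20, 17.06 and 16.20 after HSC + TBI. Hamp read 15.35, 16.29 and 16.69 in controls, 17.37, 17.31 and 17.25 after TBI and 16.73, 17.25 and 17.00 after HSC + TBI. In both genes all irradiated rats were above all controls. The TBI rats lay wholly above the controls for 13.3% of all probes, and the HSC + TBI rats for 18%. The call of Hamp held in 1 of the 9 fits that left out a rat, and those of Kng1 and Kng2 in 6.

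Members of that list that did not pass the test included the interleukin-1 receptor antagonist Il1rn at 0.90 (adjusted p = 0.0733), Fgl1 at 0.68 (adjusted p = 0.0694), the protease inhibitor Serpina3n at 0.33 (adjusted p = 0.0937) and complement C3 at 0.03 (adjusted p = 0.857). No gene of the list was called in HSC + TBI rats against controls or against TBI rats, beside 3.23% and 0.796% of all probes. At an unadjusted p under 0.05 there were 5 and 1, beside 19.6% and 16.3%. Kng1 stood at 1.23 (adjusted p = 0.0993) and Hamp at 0.88 (adjusted p = 0.162) against controls.

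Negative acute phase proteins other than Alb were read from 14 genes, 12 of which had a probe and passed the filter. After TBI, 1 fell and none rose, beside 3.71% called lower and 3.54% called higher over all probes. Serpina6, corticosteroid-binding globulin, the plasma carrier of glucocorticoids, dropped from 12.84, 13.28 and 12.91 to 11.36, 12.08 and 12.08, a log2 change of -1.17 (interval -1.72 to -0.61, adjusted p = 0.0239). In HSC + TBI rats it read 12.26, 11.67 and 12.12 and differed from controls by -0.99 (adjusted p = 0.0673). All irradiated rats were below all controls. The Serpina6 call after TBI was lost without control rat 2 (log2 change -1.03, adjusted p = 0.0757) or control rat 3 (-1.22, 0.0672). Transthyretin, Ttr, had a value of -0.53 (adjusted p = 0.130) after TBI, and the list's median was -0.06. None of the 12 was called in HSC + TBI rats against control or against TBI, beside 3.23% and 0.796% of all probes. At an unadjusted p under 0.05 there were 1 against control and 0 against TBI, beside 19.6% and 16.3%.

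**Figure D4:**
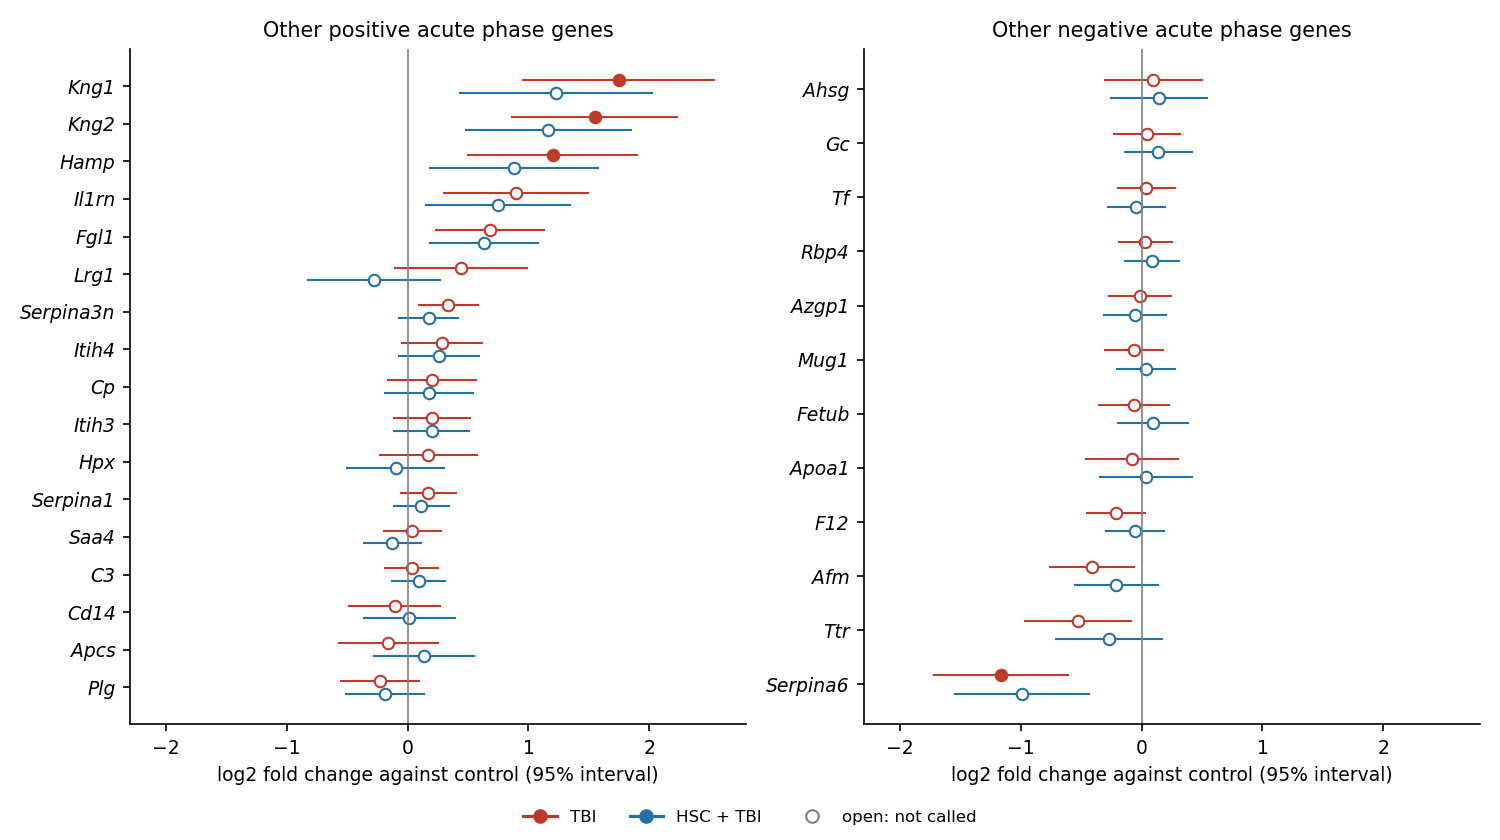
Log2 fold change against control with its 95% interval for other positive (left) and negative (right) acute phase genes, for TBI (red) and HSC + TBI (blue). Filled points are called. Kng1, Kng2 and Hamp (higher) and Serpina6 (lower) are filled after TBI, and no HSC + TBI point is.

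Cytokine ligands that drive the response were mostly dim in liver. Of 10 listed, 8 had a probe and 4 passed the filter, while Il6, Osm and Il11 were above background on no array and Tnf on 2 TBI arrays only. Il1a, interleukin-1 alpha, rose by 0.91 after TBI (adjusted p = 0.0358), and Ctf1, cardiotrophin-1, a cytokine of the IL-6 family, by 0.61 (adjusted p = 0.0253). Il1b, interleukin-1 beta, did not pass at 1.69 (interval 0.46 to 2.92, adjusted p = 0.0925). Its log2 signals were 9.25, 9.83 and 9.56 in controls, 9.73, 12.09 and 11.90 after TBI and 9.27, 9.07 and 9.13 after HSC + TBI. TBI rat 1 lay among the controls, the other TBI rats were far above, and all HSC + TBI rats were below all TBI rats. The HSC + TBI against TBI difference of Il1b was -2.08 (interval -3.31 to -0.85, adjusted p = 0.126). For Il1a it was -0.23 (adjusted p = 0.63) and for Ctf1 -0.54 (adjusted p = 0.105). The rats did not overlap in either gene, where 8.74% of all probes were lower without overlap. Against control, HSC + TBI stood at 0.68 for Il1a (adjusted p = 0.125) and 0.07 for Ctf1 (adjusted p = 0.802).

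Interleukin-1 is made chiefly by macrophages, so signals of 9 Kupffer cell and macrophage markers, all above background on every array, were read beside Il1b. Their sum was 89370, 139600 and 115600 in controls, 93720, 175100 and 140700 in TBI rats and 65590, 70930 and 70920 in HSC + TBI rats. The HSC + TBI rats were below all others, and TBI rat 1 was the lowest of its group for both the sum and Il1b. The order differed elsewhere, since TBI rat 3 had about the sum of control rat 2 but a higher Il1b signal, and HSC + TBI rat 1 had the lowest sum of its group and the highest Il1b. Cd163, a scavenger receptor of resident macrophages, had values of -0.03 after TBI and -0.14 in HSC + TBI against TBI. No marker of the 9 was called in any comparison. In HSC + TBI against TBI, however, 8 had an unadjusted p under 0.05, beside 16.3% of all probes. The part of these cells in the cytokine signals was not tested.

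Of 8 cytokine receptors that passed the filter, 1 was called after TBI, beside 7.25% of all probes. It was the interleukin-6 receptor gene Il6r, which fell by 0.78 on the log2 scale (adjusted p = 0.0137). Its log2 signals were 11.03, 11.26 and 11.10 in controls, 10.12, 10.48 and 10.43 after TBI and 10.98, 10.78 and 10.71 after HSC + TBI. The 3 groups did not overlap, with the HSC + TBI rats between the others. HSC + TBI differed from TBI by 0.48 (interval 0.16 to 0.79, adjusted p = 0.157) and from control by -0.30 (adjusted p = 0.273). The call after TBI held in all 9 fits that left out a rat. Il6st, which encodes gp130, had a value of -0.22 (adjusted p = 0.398).

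None of 12 signal transducers and feedback genes was called after TBI, with 2 at an unadjusted p under 0.05, beside 25.5% of all probes. Stat3 had a log2 difference of 0.46 (adjusted p = 0.188), Nfkbia, the inhibitor of NF-kB, 0.75 (adjusted p = 0.0873), and Socs3, the feedback inhibitor of gp130 signalling, -0.14 (interval -0.91 to 0.62, adjusted p = 0.824). Socs3 overlapped between all groups. Of 11 transcription factors of acute phase genes, 1 was called, beside 7.25% of all probes. This gene, Cebpb, rose by 0.76 (adjusted p = 0.0356). Its log2 signals were 8.43, 8.86 and 8.86 in controls, 9.39, 9.26 and 9.77 after TBI and 9.17, 8.93 and 8.99 after HSC + TBI. All TBI rats were above all other rats, and the HSC + TBI rats above the controls. Cebpd had a value of 0.47 (adjusted p = 0.284). The call of Cebpb held in 1 of the 9 fits that left out a rat, that of Il1a in 2 and that of Ctf1 in 4. With normexp background correction the log2 changes were 0.54 for Il1a, 0.41 for Ctf1 and 0.56 for Cebpb, all short of the fold needed for a call, at adjusted p = 0.0211, 0.0275 and 0.0292.

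No ligand, receptor, signal transducer or transcription factor of these lists was called in HSC + TBI against control or against TBI. The lists had 4, 8, 12 and 11 genes tested in that order. At an unadjusted p under 0.05 there were 2, 1, 3 and 1 of them against control, beside 19.6% of all probes. Against TBI there were 3 of 4, 1 of 8, 3 of 12 and 3 of 11, beside 16.3%. Cebpd differed between HSC + TBI and TBI by -0.88 on the log2 scale (adjusted p = 0.153), with no overlap of the rats. Over all 6 lists of acute phase and signalling genes outside the set, 8 were called after TBI and 0 in each of the other comparisons. Of all probes, 7.25% were called after TBI, 3.23% in HSC + TBI against control and 0.796% against TBI. The 0 against TBI is near that last share and is not read as a result about these genes.

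**Figure D5:**
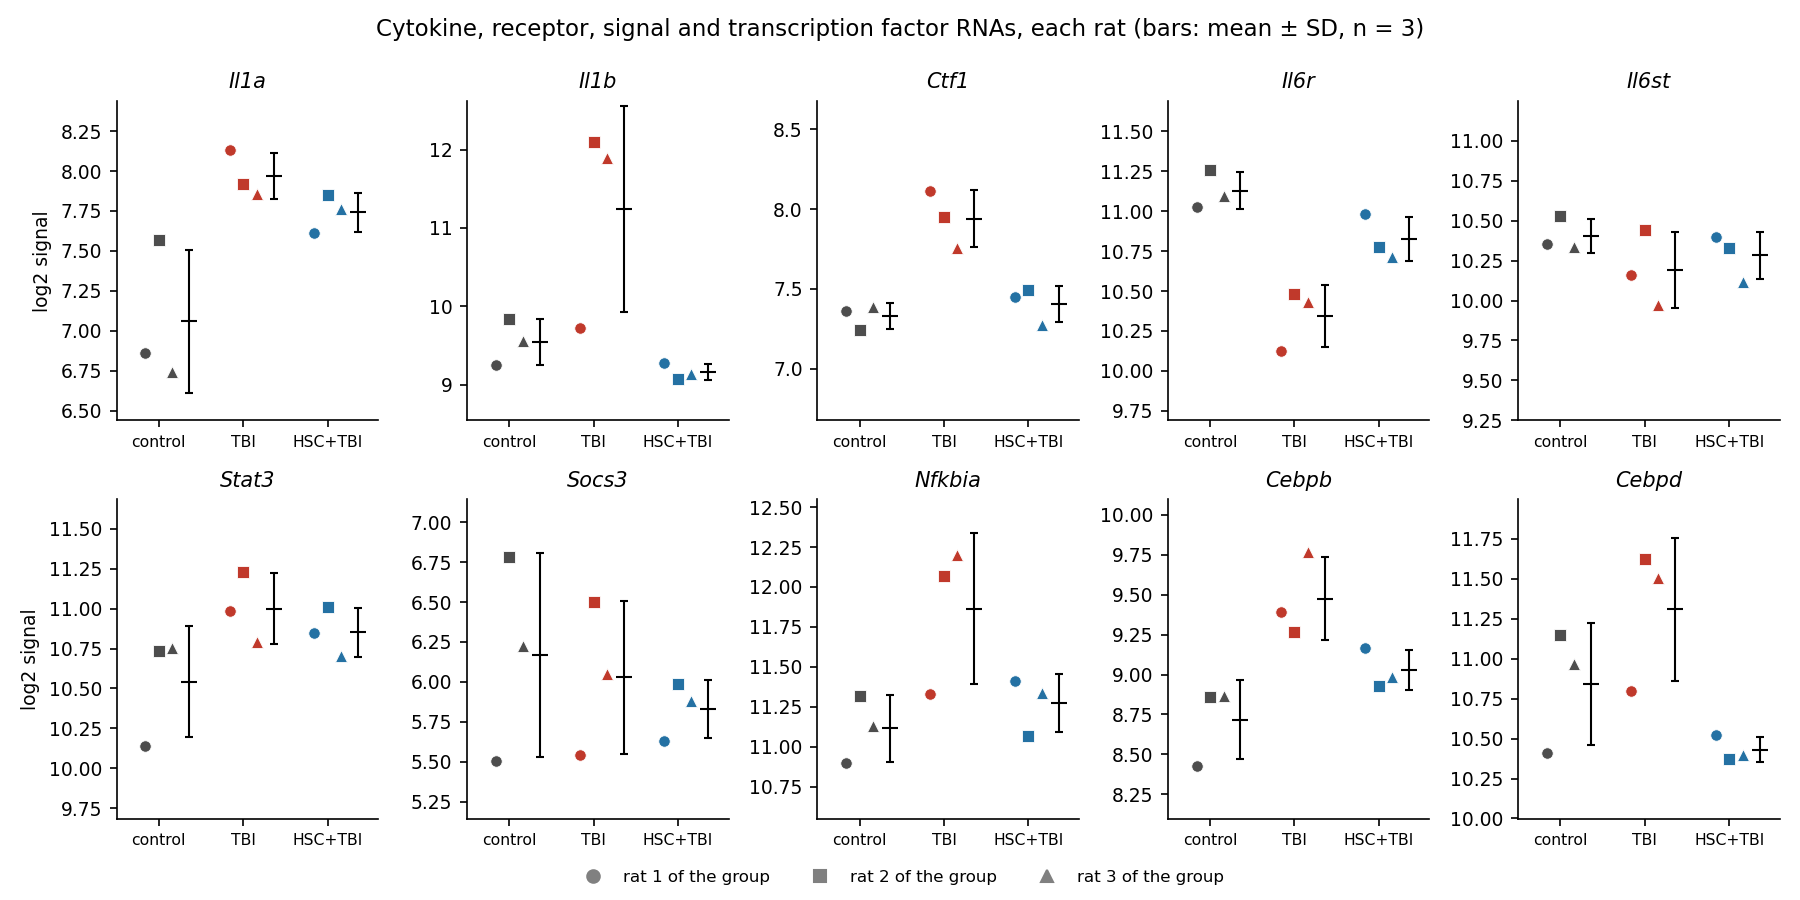
Quantile-normalized log2 signal (vertical axes, each with its own range) of 10 cytokine, receptor, signal and transcription factor genes in each rat, with bars for mean ± SD (n = 3). Il1a, Ctf1 and Cebpb are higher and Il6r lower in all TBI rats than in all controls, and Il1b is high in TBI rats 2 and 3 only.

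Markers of other cells in the liver piece were read beside these results. Hepatocyte markers summed to 294800 to 337300 in controls, 326300 to 432300 after TBI and 339000 to 374400 after HSC + TBI on the linear scale. Of the 10, 2 rose after TBI, beside 3.54% of all probes, namely Tat by 1.53 (adjusted p = 0.0287) and G6pc1 by 0.86 (adjusted p = 0.0105). With 1 rat left out, the call of Tat held in 5 of 9 fits and that of G6pc1 in 9. Lymphocyte markers summed to 537.6 to 700.8, 336 to 513.7 and 323.7 to 417.8 in the same order, with both irradiated groups below the controls. Cd3e was above background on no array. Cd79b and Cd2 were above background on every control array and on no TBI array, and passed the filter only through the controls. On the quantile-normalized scale Cd79b was at least 4.97-fold lower after TBI and at least 2.90-fold lower after HSC + TBI than in controls. Cd2 was at least 5.13-fold lower after TBI. These are bounds since the lower group was not well above background. Passing the filter in this way favours lower values in irradiated rats, so no size of change is read from them. With normexp background correction neither call of Cd79b held, at log2 changes of -0.32 after TBI (adjusted p = 0.0677) and -0.38 after HSC + TBI (adjusted p = 0.0531), and Cd2 was at -0.49 after TBI (adjusted p = 0.00596), short of the fold for a call. Of the 6 lymphocyte markers tested, 2 were higher in value after TBI without passing, Cd4 at 0.71 (adjusted p = 0.260) and Lck at 0.55 (adjusted p = 0.240). Endothelial and stellate cell markers summed to 16320 to 19410, 19920 to 24270 and 18420 to 20330, and of these Lrat fell after TBI by 0.63 (adjusted p = 0.0237), a call that held in 4 of the 9 fits that left out a rat. Bile duct cell markers summed to 474.5 to 561.8, 380.7 to 722.2 and 446.9 to 513.9. The part of any of these cells in the values of Orm1 and Lbp was not tested.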

How the data were processed

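The authors extracted spot intensities and quality flags with Agilent Feature Extraction (10.7.3.1 per the file headers) and deposited them per array, with a table of log2 values that they had quantile-normalized in GeneSpring. Here processed intensities, floored at 1 and without control and outlier spots, were log2-transformed, quantile-normalized across the 9 arrays and averaged per probe. A probe entered the tests if some group had it above background in each of its 3 rats (more than 0.5 of its spots flagged). Each array differed from the authors' log2 values by a median of 0.03. RefSeq accessions named 16968 of 41012 probes (assembly GRCr8, names only).

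limma 3.58.1 (R 4.3.3) fitted 3 group means in 1 fit, with Benjamini-Hochberg adjustment over all probes tested. It replaced the t-test and variance analysis named in the methods, both of them run as alternatives. A gene was read from its brightest probe. Groups followed the sample labels. The rats of a group are separate animals, and their number limits the precision. The scripts were tested on simulated data. The members and all gene lists were chosen with earlier results of these data known. Results for some single genes and motifs are not reported here. Genes named outside the set were those called, those with the largest change in a list and a fixed set of signalling genes. A fold of at least N compares the brighter group's mean with the lowest signal above background on the dim arrays, or the probe's own signal where higher. Linear sums over markers add the normalized signals of each list's brightest probes.

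The alternatives were 75th percentile scaling, normexp background correction with an offset of 50, the authors' values, no filter or a filter on all 9 arrays, keeping outlier spots, fitting the compared groups alone, the methods' tests, no minimum fold, the replicate number or the slide as a block, the mean over probes and each rat left out.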

Additional observations from a re-analysis of the deposited data

Results flagged for a closer look

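Among the lists read beside the acute phase genes, the lymphocyte marker Cd2, an adhesion receptor of T and natural killer cells, had a fitted value of 2.47 on the log2 scale for HSC + TBI against TBI (limma, adjusted p = 0.0306). Its log2 signals were 1.16, 1.15 and 1.85 after TBI and 4.76, 3.41 and 3.40 after HSC + TBI. No TBI array and 1 HSC + TBI array had Cd2 above background, and the probe passed the filter through the controls, so that neither a fold nor a difference between the irradiated groups is read from these values. The call was lost with normexp background correction (0.23, adjusted p = 0.204), without a filter on dim probes (adjusted p = 0.0638), with only the 2 groups fitted (adjusted p = 0.0953), with the replicate block (adjusted p = 0.0536) and by the methods' test after adjustment (adjusted p = 0.295). Leaving out 1 rat gave adjusted p from 0.0206 to 0.0978, and the call held in 4 of 9 such fits.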

How the results depend on the processing

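Of the members' values under all alternatives, 613 kept their direction and side of the threshold, 9 lost a call, 5 gained one and 30, all of members not called, turned sign. After TBI, 2 members were called, 0 by the methods' t-test with adjusted p, and 0 to 2 with 1 rat left out (0 without control rat 1, control rat 3 or TBI rat 2, and 1 without control rat 2). For HSC + TBI against control the count of 0 became 1, Orm1, under 75th percentile scaling, the methods' t-test with unadjusted p, the replicate block and the slide block. Against TBI it became 1, Lbp, under the slide block. The F-test's 1 member became 2 under 75th percentile scaling, normexp and the replicate block, 3 under the slide block, 0 without a filter and 0 by the methods' analysis of variance at an unadjusted p under 0.01, and 0 to 1 with 1 rat left out.

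The 8 other listed genes called after TBI are a count added after the data were seen. Under normexp there were 6, with Il1a, Ctf1 and Cebpb lost and a gene not called in the main fit gained. Without a filter there were 5 (Hamp, Il1a and Cebpb lost), and with only the 2 groups fitted 4 (those and Ctf1 lost). The adjusted t-test gave 0, and the replicate block 4 (Hamp, Il1a, Cebpb and Serpina6 lost). The slide block gave 14, and fits with 1 rat left out gave 2 to 8. Against control, HSC + TBI gave 0, but 3 under 75th percentile scaling, 1 under normexp, 1 with only the 2 groups, 8 by the unadjusted t-test, 2 with the replicate block, 11 with the slide block and 0 to 1 with 1 rat left out. Against TBI it gave 0, but 2 by the unadjusted t-test, 6 with the slide block and 0 to 5 with 1 rat left out (5 without TBI rat 1 and 1 without TBI rat 3).

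Signs turned under 75th percentile scaling for Fgb (-0.0246 after TBI, 0.12 for HSC + TBI against control and 0.14 against TBI), Crp (0.0127 against TBI) and Hp (0.15 against TBI). They turned under normexp for Hp (-0.0155 for HSC + TBI against control) and Fga (-0.0226 against TBI), under the authors' values for Fga (-0.0228 against TBI), and under the mean of probes for Fgb (0.0792 for HSC + TBI against control) and Fgg (-0.0139 against TBI). With 1 rat left out, the TBI against control values ran from -0.0249 to 0.29 for Crp, -0.10 to 0.14 for Fga, -0.10 to 0.34 for Fgg, -0.28 to 0.96 for A2m and -0.52 to 1.72 for Lcn2. Those of HSC + TBI against control ran from -0.0854 to 0.15 for Crp, -0.10 to 0.0135 for Fgb and -0.78 to 1.08 for Lcn2. Those of HSC + TBI against TBI ran from -0.26 to 0.054 for Crp, -0.0278 to 0.21 for Fga, -0.15 to 0.28 for Fgg and -1.41 to 0.83 for Lcn2. Without a change of sign, the last comparison ran from -0.89 to -0.39 for Lbp, -0.76 to -0.30 for Orm1 and 0.0681 to 1.22 for A2m, and HSC + TBI against control from 0.42 to 0.92 for Lbp. The cause of these shifts was not tested.

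Scaling by the 75th percentile moved the median change of all probes by at most 0.04 and the share of higher calls in HSC + TBI against TBI from 29.2% to 13.7%. Replicate numbers were not taken to pair the rats in the main fit. Deviations of same-numbered rats correlated at 0.19, 0.12 and 0.10 for TBI with control, and at -0.14, -0.02 and -0.03 for HSC + TBI with TBI. For HSC + TBI with control the values were 9e-04, 0.01 and 0.01. Of 9 rats, 5 correlated best with their own number, which does not settle whether the rats were paired. The slide block rests on a within-slide correlation of -0.33 that only the HSC + TBI slides can inform. Signal over background limits Lcn2 in 1 control, the dim cytokines and most neutrophil and lymphocyte markers.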
